A study of Sus scrofa with 3 samples.

Results

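Cytosolic ribosomal protein genes were described in 3 pig libraries, 1 from attached cells of the bone marrow (BMAC), 1 from mesenchymal stem cells derived from bone marrow (BM-MSC) and 1 from mononuclear cells of peripheral blood (PBMC). Members were taken by symbol, as RPL or RPS followed by a number and at most a short suffix, together with RPSA, RPLP0, RPLP1 and RPLP2. The rule gave 82 of the 26466 symbols in the count files, 50 of the large subunit and 32 of the small subunit. The symbol rule itself uses no measured value, but the members named below and the other lists were chosen with earlier results of these data known. RPL39L and RPL41 had no row under those symbols and were not analysed here, and FAU and RACK1, which also encode ribosomal proteins, lie outside the symbol rule.

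A ribosome joins a small subunit, which reads the codons of an mRNA, to a large subunit, which forms the peptide bonds. Each subunit is built from ribosomal RNA and from many small basic proteins, most of them present once per particle and nearly all made from a single gene with one or no expressed paralogue. Their mRNAs are among the most abundant of any cell and begin with a run of pyrimidines known as the 5' TOP motif, through which the kinase mTOR and the RNA-binding protein LARP1 set their translation together. A few paralogues replace a main protein in particular tissues, and some members act outside the ribosome, such as RPL5 and RPL11, which bind the ubiquitin ligase MDM2.

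The libraries were made from 500 ng of total RNA with a Lexogen QuantSeq kit, which yields 1 tag from the 3' end of a polyadenylated transcript, so counts were not divided by transcript length and are given per 1000000 counts of the library total (CPM). All 3 populations are labelled by cell type alone. No treatment, genotype, strain, age, donor animal, isolation method or culture history is given in the labels, and the BMAC and PBMC labels do not say which cell types they hold. With 1 library per population no difference has a replicate check and no p-value is given. Intervals in parentheses are 95% exact intervals for counting error only, since reads without molecular identifiers need not be independent molecules. Total counts were 15122997 in BMAC, 17069344 in BM-MSC and 15445903 in PBMC.

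The labels were first set against their markers. The 9 leukocyte markers summed to 2.45 CPM in BMAC, 5.04 CPM in BM-MSC and 4179 CPM in PBMC, and 5 of the 9 were at 0 counts in BMAC and 3 in BM-MSC. The 8 stromal markers summed to 10939 CPM in BMAC, 13197 CPM in BM-MSC and 59.6 CPM in PBMC, with 0 of them at 0 counts in any library. Summed in the same way, erythroid markers reached at most 7.25 CPM, megakaryocyte markers 47.5 CPM and endothelial markers 152 CPM in any library. Only 1 of 4 endothelial markers reached 10 CPM in each library, and 1 of 3 megakaryocyte markers in BM-MSC, where their sum was highest. The 5 proliferation markers, which include MKI67 and TOP2A, summed to 116 CPM in BMAC, 15.1 CPM in BM-MSC and 158 CPM in PBMC.

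Ribosomal protein genes took 5.15% of all counts in BMAC (5.13 to 5.16), 4.50% in BM-MSC (4.49 to 4.51) and 5.69% in PBMC (5.68 to 5.71). PBMC therefore had the highest share and BM-MSC the lowest, with BMAC between them. RN18S and RN5-8S, the rows annotated as cytosolic ribosomal RNA, ran in the opposite order, at 2.66% in BMAC, 3.79% in BM-MSC and 1.28% in PBMC, and they enter the total by which every gene is divided. A further 3 rows, LOC102158401, LOC110258214 and LOC110258600, held 8.75% in BMAC, 11.7% in BM-MSC and 4.01% in PBMC. RefSeq lists them as predicted protein-coding genes on unplaced sequence, but the counts of LOC110258600, 403082 in BMAC, 645845 in BM-MSC and 200535 in PBMC, were almost those of RN18S, 402086 in BMAC, 645220 in BM-MSC and 196653 in PBMC. Whether the same reads were counted in several of these rows was not tested. Without all 5 rows the ribosomal protein share was 5.81% in BMAC, 5.32% in BM-MSC and 6.01% in PBMC, in the same order over a narrower range. Without RN18S and RN5-8S alone it was 5.29% in BMAC, 4.67% in BM-MSC and 5.77% in PBMC. The proliferation markers were also lowest in BM-MSC, and their part in the order was not tested. In such bulk libraries fewer cells of a type and less RNA per cell cannot be told apart.

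**Figure D1:**
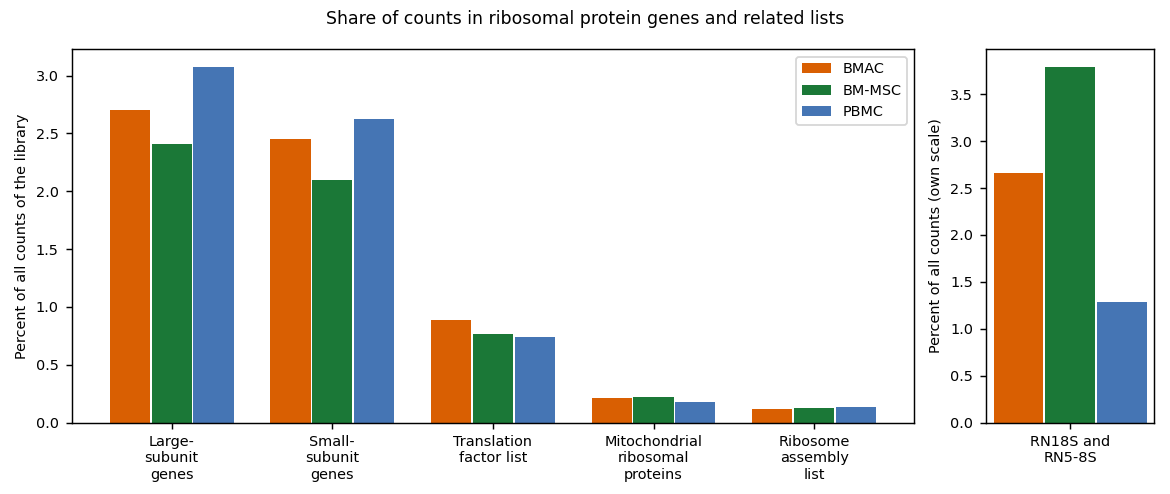
Share of each library's counts in large-subunit and small-subunit ribosomal protein genes, in 3 related gene lists and, on its own vertical scale at the right, in the ribosomal RNA rows RN18S and RN5-8S together, for BMAC, BM-MSC and PBMC (bars, 1 library each, percent of all counts). Both subunits are highest in PBMC and lowest in BM-MSC, while RN18S and RN5-8S together are highest in BM-MSC and lowest in PBMC.

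The subunits kept nearly the same balance. Large-subunit genes held 52.4% of the ribosomal protein counts in BMAC (52.3 to 52.5), 53.5% in BM-MSC (53.4 to 53.6) and 53.9% in PBMC (53.8 to 54.0). The small-subunit share was thus highest in BMAC. The order of the libraries, BMAC lowest and PBMC highest, was the same without the 5 highest members and without the members whose overlapping row held at least 25% of their count.

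Members differed far more from each other than between libraries. In all 3 libraries 80 of the 82 members reached 10 CPM, and the median member stood at 531 CPM in BMAC, 462 CPM in BM-MSC and 548 CPM in PBMC. Between the lower and upper quartile the members lay from 316 to 866 CPM in BMAC, 299 to 723 CPM in BM-MSC and 358 to 959 CPM in PBMC. Members made up 15 of the 82 genes that reached 1000 CPM in BMAC, 9 of 78 in BM-MSC and 19 of 72 in PBMC. Of the ribosomal protein counts the 5 highest members of each library held 16.6% in BMAC, 16.3% in BM-MSC and 16.8% in PBMC. Levels of different genes are CPM of 3' tags, not divided by length, and they depend on how well each annotated 3' end matches the transcript and on reads shared with near-identical copies, which these genes have in large number.

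The highest members were partly shared. RPLP0, the base of the acidic stalk of the large subunit, was the highest in both marrow libraries. RPL27A stood at 1366 CPM in BMAC, 1446 CPM in BM-MSC and 1793 CPM in PBMC. RPS6, the small-subunit protein phosphorylated by S6 kinase, stood at 1615 CPM in BMAC, 1115 CPM in BM-MSC and 1658 CPM in PBMC. RPS27A, which is made as a fusion with ubiquitin and so supplies both proteins, was among the 3 highest in PBMC alone, at 1083 CPM in BMAC, 1136 CPM in BM-MSC and 1856 CPM in PBMC. RPS6 was among the 3 highest in BMAC alone, and RPL27A in BM-MSC and PBMC.

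At the low end, RPL10L and RPL3L were near 0. RPL10L, a retrocopy-derived paralogue used in the male germline of mice, had counts of 2 in BMAC, 5 in BM-MSC and 1 in PBMC. RPL3L, a striated muscle paralogue of RPL3, had counts of 7 in BMAC, 10 in BM-MSC and 5 in PBMC, and it overlaps NDUFB10, a row with far more counts. Next came RPL26L1 and RPL7L1, both under 40 CPM in every library. Apart from paralogues, the lowest member was RPS21 in both marrow libraries, at 113 CPM in BMAC, 91.7 CPM in BM-MSC and 122 CPM in PBMC, and RPS25 in PBMC, at 112 CPM.

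**Figure D2:**
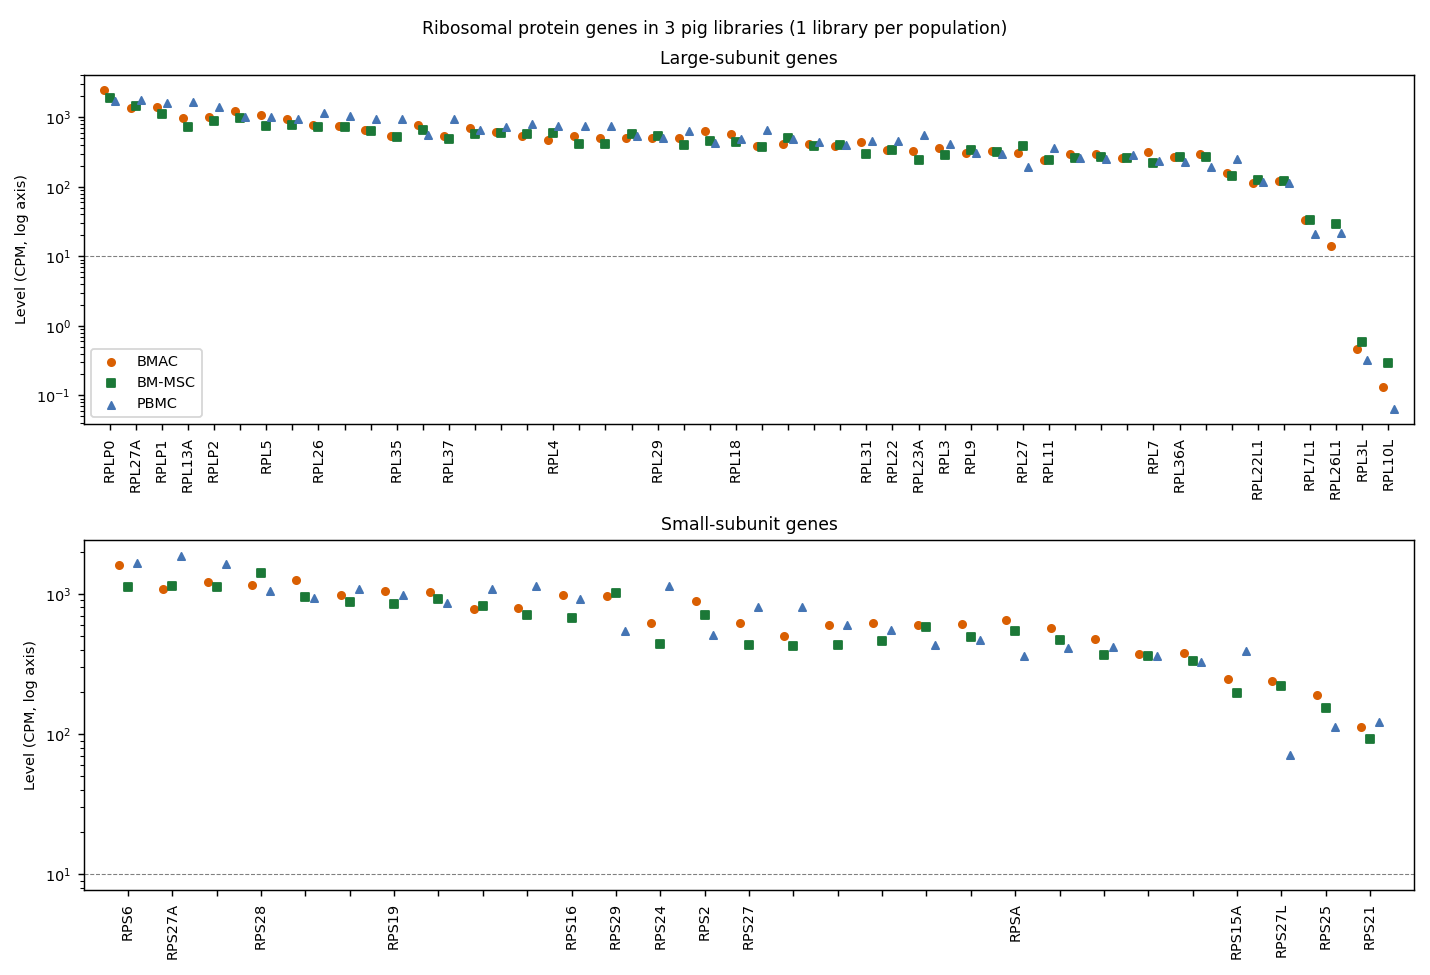
Level of 79 of the 82 ribosomal protein genes (points, CPM on a log axis) in BMAC, BM-MSC and PBMC, with large-subunit genes above and small-subunit genes below, each ordered by mean level, and with symbols under the genes described in the text. The dashed line marks 10 CPM, below which only RPL3L and RPL10L lie, and the 3 libraries sit close together for most genes.

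Some symbols carry an uncertain count. RPL18 has 2 rows, which were summed, and 1 of them held nearly all of its counts. Another row overlaps 13 members in the RefSeq table, and in 4 of them that row held at least 25% of the member's count in a library. RPL9 and the row KLB had almost equal counts, 4633 and 4510 in BMAC, 5766 and 5693 in BM-MSC and 4784 and 4797 in PBMC. ACY1, overlapping RPL29, held 77.0% of the RPL29 count in BMAC, 81.4% in BM-MSC and 76.9% in PBMC. The other two were RPL3L with NDUFB10 and RPS25 with CCDC84. Whether strand was used in counting is not given, so the rows of such a pair cannot be told apart.

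Across the libraries the members stayed close together. The ratio of the highest to the lowest library, from CPM without a pseudocount, had a median of 1.42 over the 80 members at 10 CPM or more in a library, against 2.87 over all 11861 genes at that level. It was under 2 for 75 of the 80 members (93.8%) and for 32.1% of all genes. With library totals the 5 members beyond 2-fold were RPS27L (3.37), RPS24 (2.61), RPL13A (2.29), RPL23A (2.23) and RPL26L1 (2.10), and RPL27 and RPS15A lay just inside it. Which members passed 2-fold depended on the scaling between libraries, as given for each pair below. By library, 28 of the 80 were highest in BMAC, 12 in BM-MSC and 40 in PBMC, while 15 were lowest in BMAC, 41 in BM-MSC and 24 in PBMC. This order rests on library totals. With factors from a trimmed mean of M-values (TMM), 45 of the 80 were higher in BM-MSC than in PBMC, in place of 31. In BMAC 50 of the 80 were then higher than in PBMC, in place of 33.

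BM-MSC were set against PBMC, since the series was designed to compare expression profiles of these populations. Ratios are log2((CPM + 1)/(CPM + 1)), and a member was counted as different at a ratio of at least 1 in size (2-fold), given a floor of 10 CPM and 10 counts in whichever library had more. In BM-MSC 1 member was at least 2-fold higher and 3 were at least 2-fold lower among the 80 above the floor. Among all 11428 genes above the floor 26.4% were higher and 31.8% lower by the same rule. The higher member was RPS27L and the lower ones RPS24, RPL13A and RPL23A. At 4-fold the count was 0 of 80, against 30.0% of all genes. The median log2 ratio of members was -0.26 and that of all genes -0.16. The interquartile range was 0.71 log2 units for members and 2.44 for all genes.

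That median depends on scaling. In place of library totals, TMM (edgeR's trimmed mean of M-values) and median-of-ratios factors shifted the all-gene median of this pair by 0.39 and 0.42 log2 units, and the members' median turned to 0.077 and 0.10. Relative to the median of all genes, the members' median was -0.096 with library totals, -0.15 after TMM and -0.16 after median-of-ratios scaling. With library totals it was 0.048 at a floor of 1 CPM and 0.18 at a floor of 50 CPM, so its sign depended on the floor. At 50 CPM the medians themselves were -0.28 for members and -0.46 for all genes. Among all genes past 2-fold 45.4% were higher in BM-MSC with library totals, 56.9% by TMM and 57.9% by median-of-ratios scaling. The members past 2-fold became 3 higher and 1 lower under either scaling, namely RPS27L, RPL27 and RPS29 higher and RPS24 lower in BM-MSC. With RN18S, RN5-8S, the 3 LOC rows and the mitochondrial rows left out of the totals they were 3 higher and 3 lower, since RPL27 and RPS29 joined the members past 2-fold.

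The next comparison was BMAC against PBMC. In BMAC 1 member, RPS27L, was at least 2-fold higher and 0 were lower, among 80 above the floor. Of all 11371 genes above the floor 24.8% were higher and 26.4% lower. At 4-fold the count was 0 of 80, against 26.8% of all genes. The median log2 ratio was -0.06 for members and -0.12 for all genes, and the interquartile range 0.73 and 2.05 log2 units. Under TMM or median-of-ratios scaling, which shifted the all-gene median by 0.33 and 0.34, 5 members were at least 2-fold higher in BMAC, RPS2, RPS25, RPS29 and RPSA besides RPS27L, and RPS27L passed 4-fold. Of all genes past 2-fold 48.4% were higher in BMAC with library totals, 59.5% by TMM and 59.9% by median-of-ratios scaling. Both comparisons with PBMC share the same PBMC library.

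BMAC and BM-MSC, the marrow libraries, were the closest pair. Only RPL26L1 was past 2-fold, lower in BMAC, so that 0 of 80 members were higher and 1 lower, against 11.1% and 8.2% of all 10303 genes above the floor. At 4-fold the count was 0 of 80 and 6.11% of all genes. Small differences mostly pointed to BMAC, with 60 of 80 ratios above 0 and a median of 0.17, beside 0.093 for all genes. Small-subunit members had a median of 0.27, with 27 of 32 above 0, and large-subunit members a median of 0.09, with 33 of 48 above 0. With TMM, median-of-ratios factors, or totals without those 5 rows and the mitochondrial rows, 52, 51 and 49 of the 80 ratios were above 0.

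**Figure D3:**
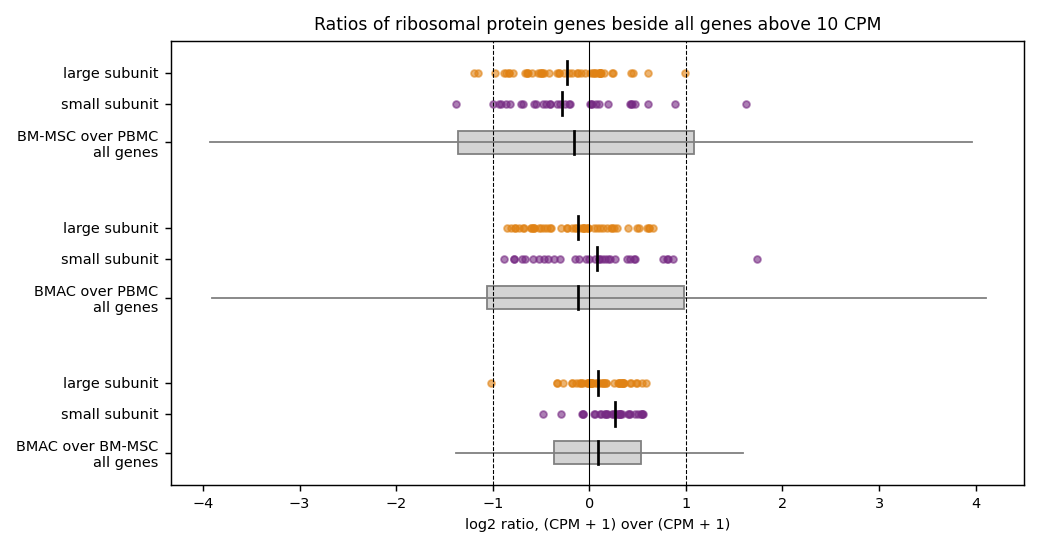
Log2 ratios of (CPM + 1) for ribosomal protein genes above 10 CPM in each pair of libraries, as points by subunit with the median as a black tick, above a box for all genes (grey box interquartile range, line 5th to 95th percentile, tick median). Dashed lines mark 2-fold in either direction, and almost all members lie inside them while the boxes of all genes reach about as far as these lines in both comparisons with PBMC.

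The makeup of the group does not depend on scaling between libraries when each member is given as a percent of all ribosomal protein counts of its library. By this measure 13.1% of the counts would have to move between members to make BM-MSC like PBMC, 13.3% to make BMAC like PBMC and 6.83% to make BMAC like BM-MSC. Spearman's rho of the 82 levels, across genes that are not independent replicates, was 0.889, 0.896 and 0.963 in the same order. Members whose share differed at least 2-fold numbered 3 higher and 1 lower in BM-MSC against PBMC, 2 higher and 0 lower in BMAC against PBMC, and 0 higher and 1 lower in BMAC against BM-MSC. Set on the same scale, relative to the summed ribosomal protein count, 33.2% of all genes were higher and 26.6% lower in the first pair, 27.9% and 24.4% in the second and 9.15% and 11.8% in the third.

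**Figure D4:**
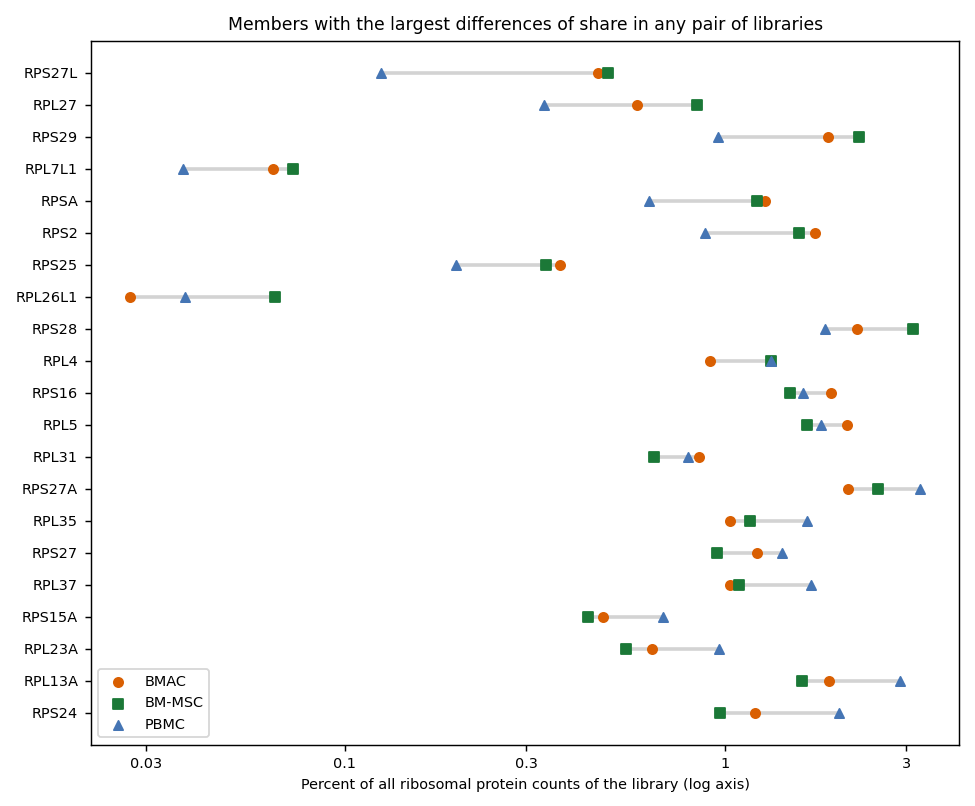
Percent of all ribosomal protein counts of a library (log axis) held by 21 of the 23 members with the largest differences of share in any pair of libraries, for BMAC, BM-MSC and PBMC (points, 1 library each), ordered by the ratio of BM-MSC to PBMC. RPS27L at the top has the largest ratio of BM-MSC to PBMC and RPS24 at the bottom the smallest, and RPL26L1 is the widest apart between BMAC and BM-MSC.

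Several small-subunit genes weighed more in the marrow libraries than in blood. RPSA, which joins the small subunit and also serves as a laminin receptor at the cell surface, stood at 656 CPM in BMAC, 545 CPM in BM-MSC and 358 CPM in PBMC. Of the ribosomal protein counts it held 1.27% in BMAC, 1.21% in BM-MSC and 0.629% in PBMC, a share 2.02-fold (1.96 to 2.09) higher in BMAC and 1.93-fold (1.86 to 1.99) higher in BM-MSC than in PBMC. RPS2, which lines the path of the mRNA into the small subunit, stood at 889.7 CPM in BMAC, 703 CPM in BM-MSC and 506 CPM in PBMC. Its share was 1.95-fold (1.89 to 2.0) higher in BMAC and 1.76-fold (1.71 to 1.81) higher in BM-MSC than in PBMC.

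RPS29, a zinc-binding protein of the small-subunit head, stood at 959 CPM in BMAC, 1011 CPM in BM-MSC and 547 CPM in PBMC. Both marrow libraries were well above PBMC, with a share 1.94-fold (1.89 to 1.99) higher in BMAC and 2.34-fold (2.28 to 2.40) higher in BM-MSC. RPS25, needed in yeast and human cells for initiation on some internal ribosome entry sites, stood at 189.8 CPM in BMAC, 152 CPM in BM-MSC and 112 CPM in PBMC, and its share was 1.88-fold (1.77 to 2.0) higher in BMAC than in PBMC. This gene overlaps CCDC84, whose count was 26.7% of its own in BMAC, 30.0% in BM-MSC and 42.9% in PBMC, so its value is uncertain. Some large-subunit genes went the same way, among them RPL15, RPL19, RPL28 and RPL27. RPL27 stood at 302 CPM in BMAC, 381 CPM in BM-MSC and 191 CPM in PBMC. Its share was 1.75-fold (1.67 to 1.84) higher in BMAC and 2.53-fold (2.42 to 2.64) higher in BM-MSC than in PBMC, and unlike RPSA and RPS2 it was lower in BMAC than in BM-MSC.

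Other members weighed more in blood. RPS24, a small-subunit protein needed to process the 18S RNA precursor, stood at 618 CPM in BMAC, 436 CPM in BM-MSC and 1137 CPM in PBMC. Its level was 1.84-fold (1.79 to 1.89) lower in BMAC and 2.61-fold (2.54 to 2.68) lower in BM-MSC than in PBMC, and its share of the ribosomal protein counts 1.66-fold (1.62 to 1.70) lower in BMAC and 2.06-fold (2.0 to 2.12) lower in BM-MSC. RPL13A, a large-subunit protein that in human monocytes can leave the ribosome to silence inflammatory mRNAs, stood at 968 CPM in BMAC, 719 CPM in BM-MSC and 1649 CPM in PBMC, 1.70-fold (1.67 to 1.74) lower in BMAC and 2.29-fold (2.25 to 2.34) lower in BM-MSC than in PBMC. RPL23A, which sits at the exit of the peptide tunnel where the signal recognition particle docks, stood at 331 CPM in BMAC, 246 CPM in BM-MSC and 549 CPM in PBMC, 2.23-fold (2.15 to 2.31) lower in BM-MSC than in PBMC. By share RPL13A was 1.81-fold (1.77 to 1.85) and RPL23A 1.76-fold (1.69 to 1.83) lower in BM-MSC than in PBMC. In each of these genes BMAC lay between BM-MSC, the lowest, and PBMC, the highest. With TMM and median-of-ratios factors RPL13A and RPL23A were less than 2-fold lower in BM-MSC.

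RPL37, RPL35, RPS15A and RPS27A followed with smaller differences. RPL37 stood at 531 CPM in BMAC, 489 CPM in BM-MSC and 961 CPM in PBMC and RPL35, another protein of the tunnel exit, at 532 CPM in BMAC, 525 CPM in BM-MSC and 934 CPM in PBMC. For both, the marrow libraries were close to each other and below PBMC, RPL37 with a share 1.55-fold (1.51 to 1.60) lower in BM-MSC and RPL35 with a share 1.59-fold (1.54 to 1.63) lower in BMAC. RPS15A stood at 246 CPM in BMAC, 196 CPM in BM-MSC and 391 CPM in PBMC, and of the ribosomal protein counts RPS27A held 2.10% in BMAC, 2.53% in BM-MSC and 3.26% in PBMC.

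The acidic stalk recruits the GTPase factors of translation to the large subunit and is made of RPLP0 with dimers of RPLP1 and RPLP2. Its base and its dimers were ordered differently across the libraries. RPLP0 stood at 2436 CPM in BMAC, 1902 CPM in BM-MSC and 1710.2 CPM in PBMC, or 1.42-fold (1.40 to 1.45) higher in BMAC and 1.11-fold (1.09 to 1.13) higher in BM-MSC than in PBMC. RPLP1 stood at 1397 CPM in BMAC, 1132 CPM in BM-MSC and 1584 CPM in PBMC and RPLP2 at 1014 CPM in BMAC, 899 CPM in BM-MSC and 1405 CPM in PBMC, both lower in the marrow libraries than in PBMC by library totals, although RPLP1 in BMAC was above PBMC with TMM and median-of-ratios factors. As shares of the ribosomal protein counts, RPLP0 held 4.73% in BMAC, 4.23% in BM-MSC and 3.0% in PBMC, RPLP1 2.72% in BMAC, 2.52% in BM-MSC and 2.78% in PBMC and RPLP2 1.97% in BMAC, 2.0% in BM-MSC and 2.47% in PBMC.

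Between BMAC and BM-MSC the differences of share were small apart from RPL26L1. Among the 5 members that weighed most towards BMAC were RPL31, RPS16, RPL5 and RPS27. RPL31, at the tunnel exit, stood at 439 CPM in BMAC, 293 CPM in BM-MSC and 455 CPM in PBMC, with a share 1.31-fold (1.26 to 1.36) higher in BMAC than in BM-MSC. RPS16, whose tail reaches the decoding site, stood at 981 CPM in BMAC, 669 CPM in BM-MSC and 916 CPM in PBMC. Towards BM-MSC, besides RPL26L1, were RPL4, RPL27 and RPS28. RPL4, whose long loop lines the peptide tunnel, stood at 469 CPM in BMAC, 593 CPM in BM-MSC and 751 CPM in PBMC, and its share was 1.45-fold (1.40 to 1.49) higher in BM-MSC than in BMAC. RPS28, near the mRNA exit of the small subunit, stood at 1148 CPM in BMAC, 1408 CPM in BM-MSC and 1046 CPM in PBMC.

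Use of paralogues differed most in the RPS27 pair. RPS27L, which differs from RPS27 by a few residues, had counts of 3613 in BMAC, 3769 in BM-MSC and 1094 in PBMC, which is 239 CPM in BMAC, 221 CPM in BM-MSC and 70.8 CPM in PBMC. Its level was 3.37-fold (3.15 to 3.61) higher in BMAC and 3.12-fold (2.91 to 3.34) higher in BM-MSC than in PBMC, the largest ratio of any member in both comparisons, and it was also at least 2-fold higher with TMM, median-of-ratios factors and pseudocounts of 5 and 0.1 CPM. The main gene RPS27 ran the other way, at 625 CPM in BMAC, 429 CPM in BM-MSC and 807 CPM in PBMC. Of the pair's counts RPS27L made up 27.7% (26.9 to 28.4) in BMAC, 34.0% (33.1 to 34.9) in BM-MSC and 8.07% (7.62 to 8.54) in PBMC. The summed level of the pair was 864 CPM in BMAC, 649.5 CPM in BM-MSC and 878 CPM in PBMC.

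**Figure D5:**
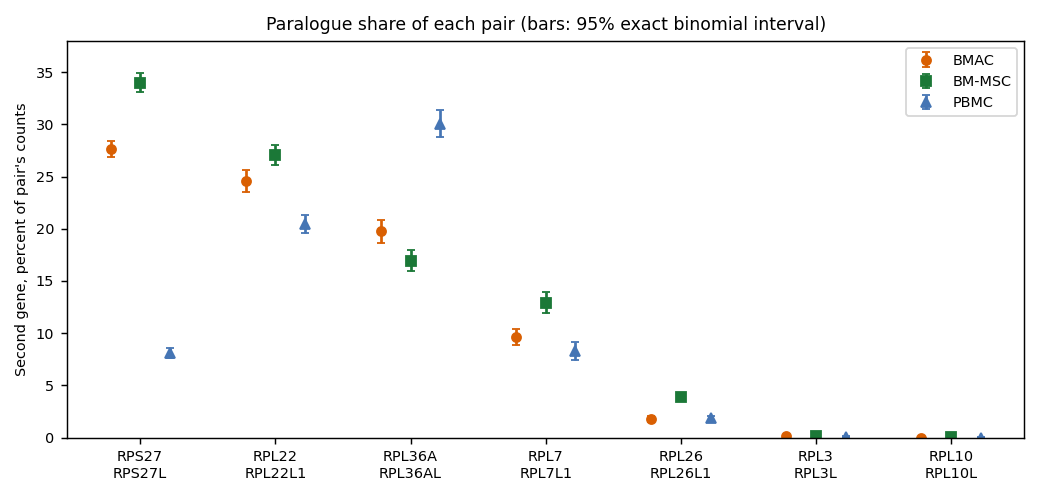
Share of a pair's counts held by its second gene (points, percent, with 95% exact binomial intervals for counting error) in BMAC, BM-MSC and PBMC for 7 pairs. RPS27L makes up more than 25% of its pair in both marrow libraries and under 10% in PBMC, whereas RPL36AL is higher in PBMC.

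RPL22L1 and RPL22 encode closely related RNA-binding proteins that in mice control each other's expression and act in T cell development. With library totals RPL22L1 was nearly level, at 112 CPM in BMAC, 127 CPM in BM-MSC and 117 CPM in PBMC, and RPL22 stood at 344 CPM in BMAC, 341 CPM in BM-MSC and 456 CPM in PBMC. Of the pair's counts RPL22L1 made up 24.6% (23.6 to 25.6) in BMAC, 27.1% (26.1 to 28.1) in BM-MSC and 20.4% (19.6 to 21.3) in PBMC. With library totals RPL22 was the member of the pair that differed more between the libraries. As shares of the ribosomal protein counts, RPL22L1 held 0.218% in BMAC, 0.281% in BM-MSC and 0.205% in PBMC. RPL22 held 0.668% in BMAC, 0.759% in BM-MSC and 0.800% in PBMC, so by share RPL22L1 differed more.

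RPL26L1, a paralogue of RPL26, was the only member past 2-fold between the marrow libraries. It stood at 14 CPM in BMAC, 29.4 CPM in BM-MSC and 21.6 CPM in PBMC, 2.10-fold (1.78 to 2.48) lower in BMAC than in BM-MSC, and of its pair it made up 1.78% (1.55 to 2.03) in BMAC, 3.90% (3.58 to 4.25) in BM-MSC and 1.84% (1.65 to 2.05) in PBMC. RPL26 itself stood at 775 CPM in BMAC, 724 CPM in BM-MSC and 1149.7 CPM in PBMC. With a pseudocount of 5 CPM the RPL26L1 ratio fell short of 2-fold.

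RPL7L1, a paralogue of RPL7, stood at 33.2 CPM in BMAC, 32.9 CPM in BM-MSC and 21.3 CPM in PBMC and was 1.56-fold (1.35 to 1.80) higher in BMAC and 1.54-fold (1.34 to 1.77) higher in BM-MSC than in PBMC. Of its pair it made up 9.62% (8.83 to 10.4) in BMAC, 12.9% (11.9 to 14) in BM-MSC and 8.30% (7.46 to 9.20) in PBMC, with RPL7 at 312 CPM in BMAC, 221 CPM in BM-MSC and 235 CPM in PBMC. RPL36AL, which lies outside the symbol rule, was ordered the other way. At 65.7 CPM in BMAC, 55.1 CPM in BM-MSC and 98.3 CPM in PBMC it was 1.5-fold (1.38 to 1.62) lower in BMAC and 1.78-fold (1.64 to 1.94) lower in BM-MSC than in PBMC, and of its pair with RPL36A it made up 19.7% (18.7 to 20.9) in BMAC, 16.9% (15.9 to 17.9) in BM-MSC and 30.0% (28.8 to 31.3) in PBMC.

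RPL3L and RPL10L gave no usable comparison. Of its pair RPL3L made up 0.126% (0.0506 to 0.259) in BMAC, 0.202% (0.0968 to 0.371) in BM-MSC and 0.0794% (0.0258 to 0.185) in PBMC, with intervals that overlap. RPL10L made up 0.0108% (0.00131 to 0.0390) in BMAC, 0.0301% (0.00977 to 0.0702) in BM-MSC and 0.00644% (0.000163 to 0.0359) in PBMC. Both stayed under 1 CPM in every library, so no difference between populations was detectable at this depth.

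Genes mutated in Diamond-Blackfan anaemia, a human failure of red cell production caused by loss of a ribosomal protein, were looked at as a group because the samples include marrow and blood cells. All 18 listed members were above the floor. In BM-MSC against PBMC 0 were at least 2-fold higher and 1 of 18 was lower, RPS24, while 26.4% of all genes were higher and 31.8% lower. The list had a median log2 ratio of -0.38, beside -0.26 for all members above the floor and -0.16 for all genes. With a floor of 50 CPM the median of all genes was -0.46. In BMAC against PBMC and in BMAC against BM-MSC 0 of 18 passed in either direction, where all genes had 24.8% higher and 26.4% lower in the first pair and 11.1% higher and 8.2% lower in the second. The medians were -0.14 and 0.21, beside -0.06 and 0.17 for all members and -0.12 and 0.093 for all genes. These counts and medians are from library totals. With TMM factors RPL27 and RPS29, both on the list, were at least 2-fold higher in BM-MSC than in PBMC (all genes 33.1% higher). RPS29 was then also at least 2-fold higher in BMAC than in PBMC (all genes 30.2% higher). Of the ribosomal protein counts the 18 together held 21.0% in BMAC, 21.6% in BM-MSC and 21.0% in PBMC. RPS19, the gene most often mutated in patients, stood at 1049 CPM in BMAC, 845 CPM in BM-MSC and 976 CPM in PBMC.

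RPL5 and RPL11, which carry 5S RNA into the large subunit and hold MDM2 when assembly fails, were not ordered alike. RPL5 stood at 1079.8 CPM in BMAC, 739 CPM in BM-MSC and 1021 CPM in PBMC, lowest in BM-MSC, and RPL11 at 242 CPM in BMAC, 242 CPM in BM-MSC and 367 CPM in PBMC, lower in both marrow libraries than in PBMC.

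The ribosomal proteins outside the symbol rule stayed within the range of the members. FAU, whose product is cleaved to ubiquitin-like FUBI and RPS30, stood at 307 CPM in BMAC, 309.6 CPM in BM-MSC and 364 CPM in PBMC. RACK1, a signalling scaffold on the small-subunit head, stood at 622 CPM in BMAC, 578 CPM in BM-MSC and 486 CPM in PBMC. Of 6 listed genes 4 had a row, among them RPL36AL, and 0 of 4 passed 2-fold in any pair.

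Translation factors and other genes whose mRNAs also carry the 5' TOP motif had fewer members past 2-fold than the share over all genes. The other genes on this list include TPT1, NPM1, NACA, BTF3 and HNRNPA1. Of 18 listed, 1 was at least 2-fold higher and 2 lower in BM-MSC against PBMC (median -0.24), 1 higher and 1 lower in BMAC against PBMC (median 0.064), and 0 in either direction in BMAC against BM-MSC (median 0.21). Over all genes these shares were 26.4% higher and 31.8% lower in BM-MSC against PBMC, 24.8% higher and 26.4% lower in BMAC against PBMC and 11.1% higher and 8.2% lower in BMAC against BM-MSC. The higher gene in both comparisons with PBMC was EEF1A1, which brings aminoacyl-tRNA to the ribosome, at 2272 CPM in BMAC, 1966 CPM in BM-MSC and 728 CPM in PBMC. It was 3.12-fold (3.05 to 3.19) higher in BMAC and 2.70-fold (2.64 to 2.76) higher in BM-MSC than in PBMC. NACA, which shields nascent chains at the tunnel exit, was the lower gene in both, at 178 CPM in BMAC, 191 CPM in BM-MSC and 385 CPM in PBMC, and EIF3E, a subunit of initiation factor eIF3, was also lower in BM-MSC, at 126 CPM in BMAC, 91.7 CPM in BM-MSC and 235 CPM in PBMC. EEF1A1 has many near-identical copies, so its count is uncertain. With TMM factors 2 of 18 were higher and 0 lower in BMAC against PBMC and 1 higher and 1 lower in BM-MSC against PBMC, where all genes had 30.2% higher and 20.5% lower in BMAC and 33.1% higher and 25.1% lower in BM-MSC. Of all counts the list held 0.887% in BMAC, 0.770% in BM-MSC and 0.736% in PBMC.

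Ribosome assembly factors, which fold, cut and carry the precursor particles, had 36 of 37 listed genes with a row. In BM-MSC against PBMC 4 of 33 above the floor were at least 2-fold higher and 4 lower (median -0.042), in BMAC against PBMC 1 of 32 was higher and 2 lower (median -0.093), and in BMAC against BM-MSC 0 of 33 were higher and 1 lower (median -0.059). All genes had 26.4% higher and 31.8% lower in the first pair, 24.8% higher and 26.4% lower in the second and 11.1% higher and 8.2% lower in the third. With TMM factors 6 of 33 assembly factors were higher and 1 lower in BM-MSC against PBMC (all genes 33.1% higher and 25.1% lower), and 4 of 33 higher and 2 lower in BMAC against PBMC (all genes 30.2% higher and 20.5% lower). BYSL, needed for the small subunit, was the only assembly factor past 4-fold after the pseudocount of 1 CPM, at 12.7 CPM in BMAC, 12.5 CPM in BM-MSC and 92.5 CPM in PBMC. SBDS, which frees the large subunit for joining and is mutated in Shwachman-Diamond syndrome in humans, stood at 14 CPM in BMAC, 16.4 CPM in BM-MSC and 3.95 CPM in PBMC, 3.55-fold (2.66 to 4.80) higher in BMAC and 4.15-fold (3.14 to 5.57) higher in BM-MSC than in PBMC. GAR1, a protein of the particles that convert uridine to pseudouridine in ribosomal RNA, stood at 9.85 CPM in BMAC, 21.1 CPM in BM-MSC and 5.37 CPM in PBMC.

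Genes of RNA polymerase I and its factors, which transcribe the ribosomal RNA precursor, had shares past 2-fold that were near those over all genes on the lower side in both comparisons with PBMC. In BM-MSC 1 of 11 above the floor was at least 2-fold higher and 4 were lower than in PBMC, against 26.4% higher and 31.8% lower over all genes (list median -0.79), and in BMAC 1 was higher and 3 lower, against 24.8% higher and 26.4% lower over all genes (list median -0.30). With TMM factors 1 was higher and 2 lower in BM-MSC (median -0.48; all genes 33.1% higher and 25.1% lower), and 1 higher and 1 lower in BMAC (median -0.026; all genes 30.2% higher and 20.5% lower). In BMAC against BM-MSC 1 was higher and 0 lower (median 0.064), and that gene, TAF1B, overlaps another row; all genes had 11.1% higher and 8.2% lower. TCOF1, which links UBTF and polymerase I at the ribosomal DNA, stood at 21.2 CPM in BMAC, 12.9 CPM in BM-MSC and 72.9 CPM in PBMC, and TTF1, which ends transcription by polymerase I, at 45.2 CPM in BMAC, 23.7 CPM in BM-MSC and 73.7 CPM in PBMC. POLR1C, a subunit shared by polymerases I and III, was the higher gene in both comparisons with PBMC, at 42.7 CPM in BMAC, 44.9 CPM in BM-MSC and 18.3 CPM in PBMC, and it overlaps XPO5.

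Of 13 regulators of ribosome production, 10 were above the floor. In BM-MSC against PBMC 1 was at least 2-fold higher and 3 were lower, in BMAC against PBMC 2 were higher and 2 lower, and in BMAC against BM-MSC 0 passed in either direction, with medians of 0.027, -0.095 and 0.28. All genes had 26.4% higher and 31.8% lower in the first pair, 24.8% higher and 26.4% lower in the second and 11.1% higher and 8.2% lower in the third. With TMM factors 2 of 10 regulators were higher and 2 lower in BM-MSC against PBMC (median 0.36; all genes 33.1% higher and 25.1% lower), and 3 of 10 higher and 1 lower in BMAC against PBMC (median 0.18; all genes 30.2% higher and 20.5% lower), and 0 passed in BMAC against BM-MSC (median 0.23). EIF4EBP1, which blocks cap-dependent initiation until mTOR phosphorylates it, stood at 50.6 CPM in BMAC, 46.0 CPM in BM-MSC and 14.6 CPM in PBMC. RPTOR, the mTOR partner that binds such substrates, stood at 32.5 CPM in BMAC, 17.3 CPM in BM-MSC and 91.9 CPM in PBMC, and RPS6KB1, the kinase of RPS6, at 28.4 CPM in BMAC, 19.6 CPM in BM-MSC and 62.9 CPM in PBMC. MYC, a transcription factor that drives ribosome production, was under 10 CPM in every library, at 3.50 CPM in BMAC, 2.23 CPM in BM-MSC and 2.33 CPM in PBMC, and MYCN had 0 counts in all 3, which allows up to 0.198 CPM in BMAC, 0.176 CPM in BM-MSC and 0.194 CPM in PBMC.

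Mitochondrial ribosomal proteins, which are encoded in the nucleus and build the separate ribosome of the mitochondrion, were more spread than the cytosolic ones. Of 73 above the floor 19 were at least 2-fold higher and 4 lower in BM-MSC against PBMC, with a median log2 ratio of 0.49, while all genes had 26.4% higher and 31.8% lower. With TMM factors 31 of 73 were higher and 3 lower, while all genes had 33.1% higher and 25.1% lower. In BMAC against PBMC 8 of 71 were higher and 4 lower, against 24.8% higher and 26.4% lower over all genes (list median 0.25), and in BMAC against BM-MSC 1 of 72 was higher and 3 were lower, against 11.1% higher and 8.2% lower over all genes (list median -0.21). The interquartile range of the ratios was 1.12, 1.01 and 0.62 log2 units in the 3 pairs, against 0.71, 0.73 and 0.33 for the cytosolic members. MRPS6 was the only one past 4-fold between the marrow libraries, at 410.4 CPM in BMAC, 58.9 CPM in BM-MSC and 35.9 CPM in PBMC, and it overlaps SLC5A3, so its value is uncertain. MRPL53, which overlaps TTC31 and CCDC142, stood at 34.1 CPM in BMAC, 40.6 CPM in BM-MSC and 6.54 CPM in PBMC, and MRPL1, which overlaps CNOT6L, at 22.4 CPM in BMAC, 28.5 CPM in BM-MSC and 109 CPM in PBMC.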

How the data were processed

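Libraries were made with the Lexogen QuantSeq kit, per the labels' protocols. The deposited values are raw counts per gene row, made by the authors. Bowtie2 and bedtools are listed, with neither versions nor roles, in the submitters' processing notes. Build, annotation, strand setting and handling of multiply mapped reads were not given in the sources used here. In each file 26965 rows stand under 26466 symbols, and rows with the same symbol were summed. All 82 members were found in the RefSeq table of Sscrofa11.1, used only for names and overlaps.

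Counts were divided by library totals (15122997 to 17069344). Size rules were at least 2-fold or 4-fold after a pseudocount of 1 CPM, with at least 10 CPM and 10 counts in the higher library. Intervals for folds and shares are exact (Clopper-Pearson). TMM factors, an alternative scaling, came from edgeR 4.0.16. The size rule was tested on simulated counts. The outcome is not given here, no result rests on it, and it cannot cover variation between animals or preparations. Totals without ribosomal RNA leave out RN18S, RN5-8S and 3 unnamed rows, which are not annotated as ribosomal RNA and were added because their counts followed RN18S. Named members are all paralogue pairs, RPSA and the stalk genes, the 5 largest differences of share in each direction per pair, and the 3 highest and lowest per library. A few genes are not reported here. From other lists up to 3 genes with the largest ratio were named, besides some background genes. Other members and role groups were picked after their values were seen, and members and lists were chosen with earlier results of these data known.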

Additional observations from a re-analysis of the deposited data

How the results depend on the processing

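No paired analysis was possible because there is 1 library per population. In BM-MSC against PBMC the members' median log2 ratio was 0.077 with TMM, 0.10 with median-of-ratios factors, -0.11 with totals without RN18S, RN5-8S, the 3 LOC rows and mitochondrial rows and -0.30 without overlapping members. In BMAC against PBMC it was 0.22 and 0.23 by the same scalings, and each of them gave 5 members past 2-fold and 1 past 4-fold. Centred on the members' median, 1 member differed 2-fold in share there. In BMAC against BM-MSC the median was 0.099 with median-of-ratios factors and 0.073 with the reduced totals. There the 2-fold count was 0 with a pseudocount of 5 CPM and 0 with a floor of 50 CPM, and with that floor 0 members differed 2-fold in share, since RPL26L1 is below 50 CPM. With the reduced totals BM-MSC against PBMC had 3 members higher and 3 lower by 2-fold, in place of 1 and 3. With the reduced totals the median in BMAC against PBMC was -0.009, in place of -0.06. With TMM factors the median in BMAC against BM-MSC was 0.114, in place of 0.167. The other alternatives fixed at the start left the medians close to the main values and the total counts past 2-fold within 1.5 times. Among them were a pseudocount of 0.1 CPM and a floor of 1 CPM.

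Without RN18S, RN5-8S and the 3 LOC rows the ribosomal protein share was 5.81% in BMAC, 5.32% in BM-MSC and 6.01% in PBMC. Without mitochondrial rows as well it was 5.94%, 5.54% and 6.34%, and without RN18S and RN5-8S alone, added after seeing the data, 5.29%, 4.67% and 5.77%. Without overlapping members it was 5.05%, 4.40% and 5.60%, in the same order of libraries. The large-subunit share was 50.7%, 51.6% and 53.8% without the 5 highest members and 51.9%, 52.7% and 53.4% without overlapping members. Without the 5 highest members, an alternative chosen after seeing the data, 13.7%, 13.7% and 6.89% of counts would have to move in the 3 pairs. The cause of these shifts was not tested. With 1 library per population, variation between animals, cultures and preparations is not covered by any interval given.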

Other observations

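Genes named as RPS6 kinases share the symbol prefix of the members but encode no ribosomal proteins, and they were looked at after their values had been seen. RPS6KA1, RPS6KA3 and RPS6KA5, of the RSK and MSK kinases downstream of ERK, were more than 4-fold lower in both marrow libraries than in PBMC. Of all genes above the floor 26.8% were past 4-fold in either direction in BMAC against PBMC and 30.0% in BM-MSC against PBMC. The 3 kinases were picked by their values, so they give no share to set beside these. RPS6KB1 was less than 4-fold lower, by 2.21-fold in BMAC and 3.22-fold in BM-MSC, and RPS6KB2 was under 10 CPM in every library. The kinase folds are from library totals, and with the TMM factors RPS6KA3 in BMAC would be less than 4-fold lower. RPS6KA1 stood at 1.32 CPM in BMAC, 1.70 CPM in BM-MSC and 33.0 CPM in PBMC, RPS6KA3 at 66.7 CPM in BMAC, 43.8 CPM in BM-MSC and 287 CPM in PBMC and RPS6KA5 at 15.9 CPM in BMAC, 9.96 CPM in BM-MSC and 205 CPM in PBMC. RPS6KA2 ran the other way, at 117 CPM in BMAC, 56.9 CPM in BM-MSC and 13.9 CPM in PBMC, or 8.39-fold (7.28 to 9.72) higher in BMAC and 4.09-fold (3.52 to 4.76) higher in BM-MSC than in PBMC. RPS6 itself lay within 1.5-fold across the 3 libraries.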
